A study of Mus musculus with 2 samples.

Results

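*Peg10*, *Sgce*, *Asb4*, *Ppp1r9a*, *Pon2* and *Pon3* are 6 protein-coding genes that lie close together on the proximal part of mouse chromosome 6, and their RNA was followed here in mouse embryo fibroblasts (MEFs) of reciprocal crosses. The genes were chosen by name and place and not by a rule on their values, though with earlier results of these data known. All 6 lay inside the part of the genome for which signal was deposited, among 1718 annotated genes there. MEFs are fibroblasts grown from the embryo after its head and internal organs are removed; each line came from 1 female embryo of 13.5 days post coitum and was used at an early passage. JXO cells had a JF1 mother and a TgOG2 (OG2) father, and OXJ cells had an OG2 mother and a JF1 father. JF1 is an inbred strain of the molossinus subspecies, and OG2 is a mouse line of mixed CBA/CaJ and C57BL/6J origin that carries an EGFP transgene under a germ cell promoter (*Pou5f1*); both crosses carry 1 parental genome of either strain. With 1 library per cross there are no replicates, so no p-value is given, and the direction of the cross, the strain of an expressed allele and the embryo cannot be told apart.

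Imprinted genes are transcribed from the allele of 1 parent. *Peg10* (paternally expressed gene 10) and *Sgce* are known to be expressed from the paternal allele, and they start close together on opposite strands at a promoter whose DNA is methylated on the maternal allele only. *Asb4* is known as a maternally expressed gene, and *Ppp1r9a*, *Pon2* and *Pon3* show a maternal bias in some tissues, the placenta among them. *Peg10* is a former retrotransposon whose gag-like and pol-like reading frames are joined by a ribosomal frameshift, and it is needed for the placenta. *Sgce* encodes ε-sarcoglycan, a membrane protein mutated in human myoclonus-dystonia. *Asb4* encodes an ankyrin repeat and SOCS box protein, *Ppp1r9a* the actin-binding scaffold neurabin, and *Pon2* and *Pon3* encode paraoxonases, esterases that cleave lactones. The tracks carry no mark of the parental allele, so levels, strands and structures of the transcripts are what was measured here.

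Levels are scaled depth: the number of reads that lie over a base, brought to a library of 50000000 aligned reads and averaged over the exons on the strand of the gene. A lone read counts as 0.652 in the JXO tracks and as 0.579 in the OXJ tracks. Intervals are 95% exact Poisson intervals on read pairs and cover counting error only. The tracks held 5837225 reads of JXO and 5785447 reads of OXJ, which is 7.61% and 6.70% of the aligned reads. On the assigned strand, 96.5% of protein-coding genes of JXO and 96.3% of OXJ were higher than on the opposite strand. Of 12 fibroblast markers only *Col1a2*, *Lum* and *Dcn* lay in the deposited stretches, with a summed level of 625 in JXO and 429 in OXJ, and no marker of blood, endothelium, epithelium, skeletal muscle or nerve lay in them, so other cell types could not be looked for.

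3 sequences of this region carry results described below. The first is the frameshift site of *Peg10* on the (+) strand, chr6:4705307-4705353 of mm9 in the reference (C57BL/6J) sequence, with the slippery heptamer in capitals.
Peg10 frameshift site: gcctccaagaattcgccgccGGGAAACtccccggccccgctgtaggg
The second is chr6:4706324-4706515, (+) strand, in the reading frame after the frameshift of *Peg10*. Capitals mark the bases over which no OXJ read was aligned.
Peg10 stretch: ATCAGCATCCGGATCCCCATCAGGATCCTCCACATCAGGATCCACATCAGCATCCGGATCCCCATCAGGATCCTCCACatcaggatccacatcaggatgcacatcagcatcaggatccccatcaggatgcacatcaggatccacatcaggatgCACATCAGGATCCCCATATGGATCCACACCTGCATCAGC
The third is exon 9 of *Sgce*, chr6:4640449-4640515 on the (−) strand, written as the RNA reads. Capitals mark the 27 bases of the exon and lower case 20 bases of intron on either side.
Sgce exon 9: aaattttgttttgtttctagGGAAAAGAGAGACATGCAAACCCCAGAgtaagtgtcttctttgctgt

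*Peg10* was the highest of the 6 genes in either library and on the deposited scale the only one that was lower in JXO; with the median gene set equal, *Sgce*, *Ppp1r9a* and *Pon3* had ratios below 0 too, with intervals that include 0. Its exon level was 58.4 (56.3 to 60.5) in JXO and 69.7 (67.5 to 71.9) in OXJ, from 5969.9 and 8019 reads. The counting intervals did not overlap. *Peg10* lies on the (+) strand at chr6:4697306-4710514 and is annotated with 1 transcript of 3 exons. In rank among 785 protein-coding genes with exon reads it was 162 in JXO and 106 in OXJ.

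*Sgce* followed at 24.1 (22.2 to 26.2) in JXO and 18.9 (17.3 to 20.7) in OXJ. It lies on the (−) strand at chr6:4624350-4697204 with 12 annotated transcripts. Over the exons of its longest coding transcript alone the level was 41.1 in JXO and 32.4 in OXJ, and the exons found only in other transcripts had at most 0.575 in JXO and 1.17 in OXJ. Over all exons joined, *Peg10* was 2.42 times *Sgce* in JXO and 3.68 times *Sgce* in OXJ, and over the longest coding transcripts 1.42 times in JXO and 2.15 times in OXJ.

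*Pon2*, (−) strand, chr6:5214147-5248455, was at 23.7 (22.1 to 25.3) in JXO and 11.5 (10.4 to 12.5) in OXJ. It stood beside *Sgce* in JXO, where their intervals overlapped, and below *Sgce* in OXJ, where they did not. *Asb4*, (+) strand, chr6:5333386-5383022, was at 10.9 (9.77 to 12.2) in JXO and 3.88 (3.24 to 4.597) in OXJ. *Pon3*, (−) strand, chr6:5170852-5206286, was at 10.0 (8.66 to 11.6) in JXO and 8.26 (7.09 to 9.56) in OXJ. The order of *Asb4* and *Pon3* was not resolved in JXO, where their intervals overlapped, while in OXJ *Pon3* was 2.13 times *Asb4*.

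*Ppp1r9a*, (+) strand, chr6:4853004-5115661, was the lowest, at 0.70 (0.537 to 0.897) in JXO and 0.564 (0.427 to 0.731) in OXJ. Over its 263 kb, exon reads amounted to 125 in JXO and 113 in OXJ. Of the 16 exons of its longest coding transcript 13 held reads in JXO and 14 in OXJ, none above a level of 1.41 in JXO and 2.39 in OXJ. Its exon bases were covered to 55.7% in JXO and 49.9% in OXJ, a thin signal spread over the whole gene. Of the 16 exons 4 were higher in JXO and 10 in OXJ, while the last exon, with 6110 bases the longest, was at 0.693 (0.476 to 0.976) in JXO and 0.445 (0.284 to 0.665) in OXJ.

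**Figure D1:**
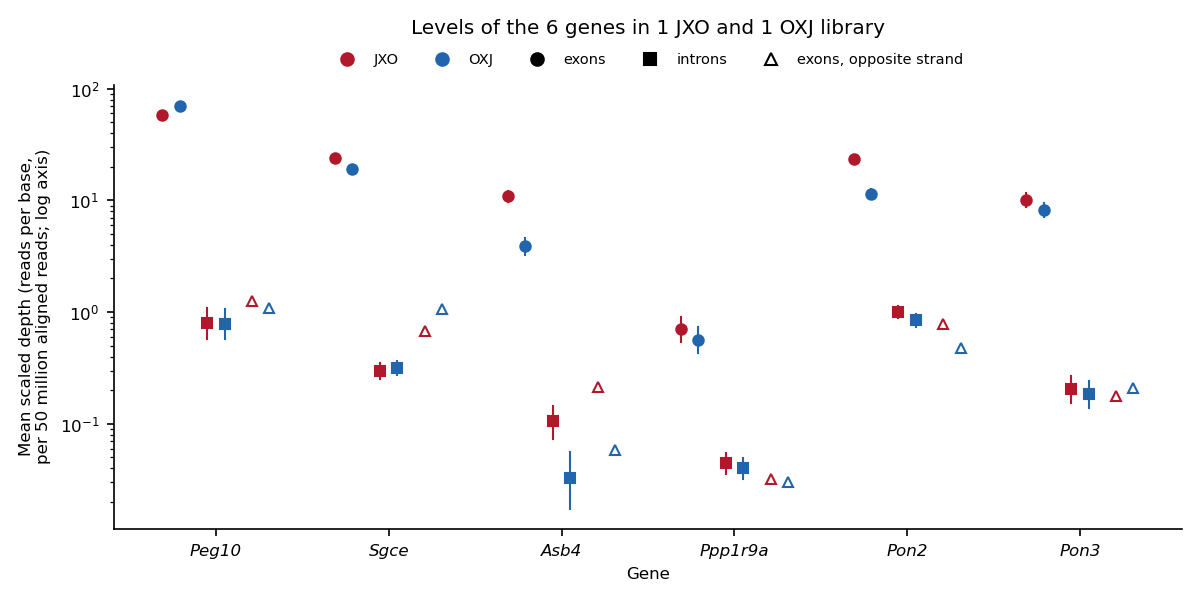
Mean scaled depth (log axis) of the 6 genes in JXO (red) and OXJ (blue). Circles are exons and squares introns on the gene's strand, with 95% counting intervals as lines, and open triangles are exons on the opposite strand; *Peg10* is highest at 58.4 in JXO and 69.7 in OXJ, and *Ppp1r9a* lowest at 0.70 in JXO and 0.564 in OXJ.

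All 6 genes were transcribed from the annotated strand. The share of exon signal on the strand of the gene was 97.9% (Clopper-Pearson interval 97.3 to 98.4%) in JXO and 98.5% (98.0 to 98.8%) in OXJ for *Peg10*. For *Sgce* it was 97.3% in JXO and 94.7% (92.4 to 96.4%) in OXJ. The opposite-strand level over the exons of *Sgce* was 0.673 in JXO and 1.07 in OXJ, and that over the deeper exons of *Peg10* was 1.25 in JXO and 1.09 in OXJ. The share of the other genes lay between 95.6% and 98.3% in JXO and between 94.97% and 98.5% in OXJ. For comparison, the median opposite-strand share of protein-coding genes was 2.80% in JXO and 3.67% in OXJ.

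Introns were low. As a percent of the exon level, intron signal was 1.36% in JXO and 1.13% in OXJ for *Peg10*, 1.23% in JXO and 1.66% in OXJ for *Sgce*, and 0.961% in JXO and 0.842% in OXJ for *Asb4*. *Ppp1r9a* had 6.31% in JXO and 7.07% in OXJ, and *Pon2* had 4.24% in JXO and 7.37% in OXJ. The median gene had 2.62% in JXO and 2.76% in OXJ. In *Pon2* the intron level itself was 1.005 (0.878 to 1.14) in JXO and 0.844 (0.735 to 0.964) in OXJ. These intervals overlapped, unlike those of its exons.

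Most gaps between the genes were nearly empty. The 142 kb from the end of *Peg10* to *Ppp1r9a* held 3.09 reads of JXO and 5.12 of OXJ on the (+) strand. The 84.9 kb between *Pon2* and *Asb4* held 2 reads of JXO and 1 of OXJ on that strand, and the 31.0 kb between *Casd1* and *Sgce* held no (+) strand read in either library and 4 reads of JXO and 3 of OXJ on the (−) strand. The gap between *Pon1* and *Pon3* was the exception, with 368 reads of JXO and 266 of OXJ on the (−) strand, most of them next to *Pon3*, and the gap between *Pon3* and *Pon2* held 20.5 reads of JXO and 27.9 of OXJ on that strand. In the 5 kb beyond their annotated ends *Peg10*, *Sgce*, *Asb4* and *Ppp1r9a* had levels of at most 0.052 in JXO and 0.048 in OXJ.

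**Figure D2:**
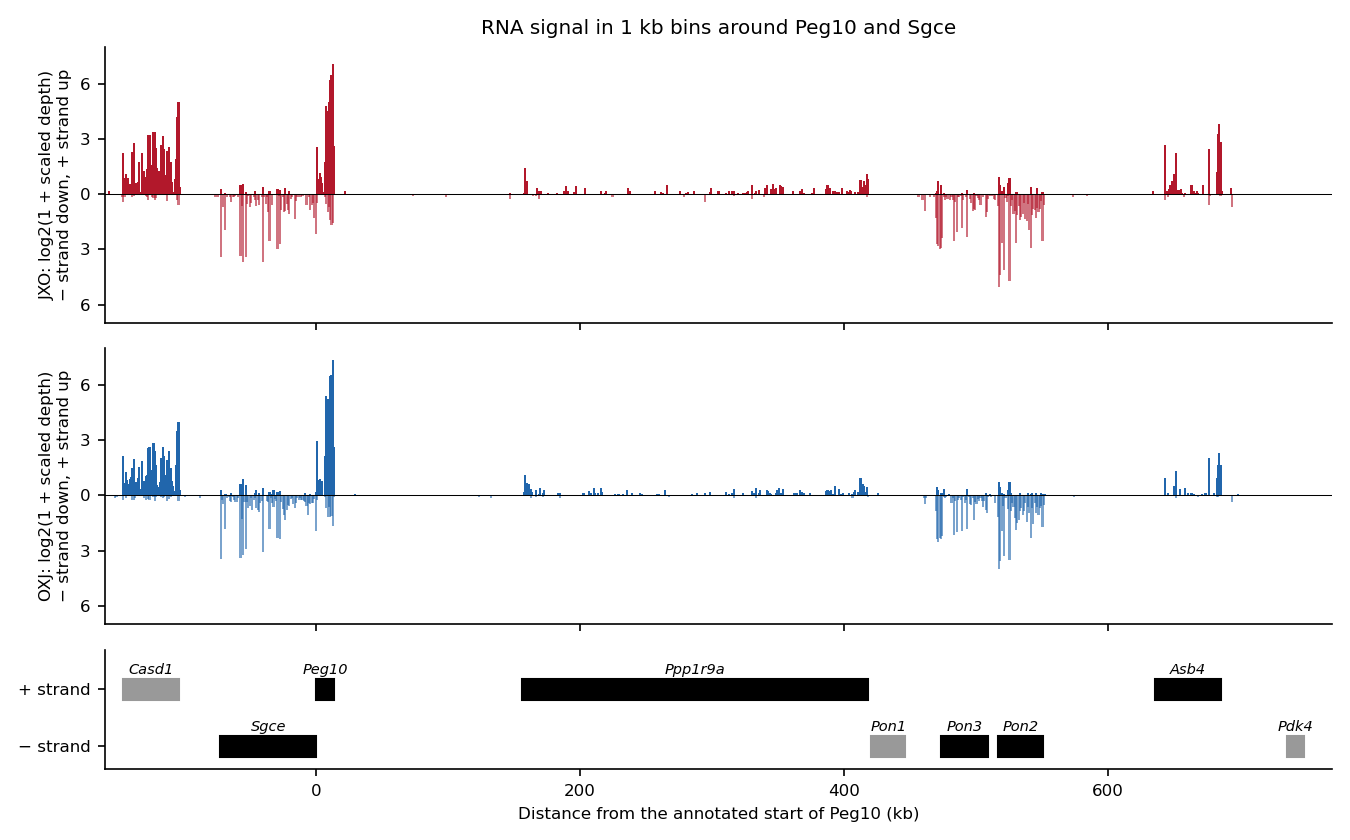
Scaled depth in 1 kb bins as log2(1 + depth), (+) strand upward and (−) strand downward, for JXO (red) above OXJ (blue), against distance from the start of *Peg10* in kb; boxes are annotated genes, black for the 6 genes described here and grey for neighbours. Most of the signal sits on the boxes and on the strand of each gene, (−) strand signal goes on for about 4 kb past the end of *Pon3*, the bins between *Peg10* and *Ppp1r9a* are close to 0 in both libraries, and *Pon1* is empty.

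The annotated starts of *Sgce* and *Peg10* are separated by 101 bases, and no read lay on these bases on either strand in either library, which allows a level of up to 4.76 in JXO and 4.23 in OXJ. On the *Peg10* side, the first 500 bases had a (+) strand level of 8.02 (5.44 to 11.4) in JXO and 11.5 (8.54 to 15.2) in OXJ. The (−) strand of the same bases was at 0.826 in JXO and 0.347 in OXJ. On the *Sgce* side, the (−) strand level was 6.91 (4.53 to 10.1) in JXO and 5.30 (3.36 to 7.96) in OXJ, and the (+) strand level 0.042 in JXO and 0.311 in OXJ.

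Each side of the promoter therefore carried RNA of its own gene, in all 4 combinations of side and library. The first exon of *Peg10* had 14.1 (9.45 to 20.1) in JXO and 20.9 (15.5 to 27.6) in OXJ, and the first exon of *Sgce* 15.4 (10.1 to 22.4) in JXO and 10.99 (6.83 to 16.7) in OXJ. The intervals of *Peg10* and *Sgce* overlapped within either library, and so did those of JXO and OXJ for either exon.

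Depth was uneven along *Peg10*. The intron that separates the first exon from the coding exons was at 0.787 in JXO and 0.775 in OXJ. The coding region before the frameshift site, the gag-like part, had 25.8 (22.5 to 29.5) in JXO and 38.5 (34.7 to 42.7) in OXJ. The coding region after it, the pol-like part, had 25.4 (22.9 to 28.2) in JXO and 31.3 (28.7 to 34.2) in OXJ. Without the stretch printed above, the pol-like part had 24.8 (22.2 to 27.6) in JXO and 34.7 (31.8 to 37.9) in OXJ, so that either part was lower in JXO and the parts overlapped within a library. The heptamer occurs 1 time in the coding region, and the annotation leaves a gap of 2 bases in it, which makes 3 exons of the gene. In the 200 bases before the heptamer the level was 24.2 (17.0 to 33.3) in JXO and 34.2 (26.1 to 44.1) in OXJ, and in the 200 bases after it 17.4 (11.4 to 25.4) in JXO and 36.8 (28.3 to 47.0) in OXJ, without a step beyond the intervals in either library. The frameshift is made by the ribosome, so RNA depth cannot show whether it took place. The last exon beyond the stop codon was at 93.7 (89.96 to 97.6) in JXO and 108 (104 to 112) in OXJ, above both parts of the coding region. In 25-base bins the highest value was 238 in JXO and 298 in OXJ, in the same bin 5.81 kb from the start of the second exon.

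OXJ was the higher library in 203 of 255 bins of 25 bases along exons 2 and 3 of *Peg10*. Against this, JXO was at least 2 times higher in 4 narrow runs of bins, which together hold 23 bins. The longest of them, 325 bases long, had a mean of 36.4 in JXO and 4.76 in OXJ, and lies in the pol-like part around the *Peg10* stretch printed above. The other runs, of 75, 75 and 100 bases, lie beyond the stop codon, with 121, 48.1 and 112 in JXO against 30.03, 8.44 and 31.6 in OXJ.

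Over the printed stretch of 192 bases, JXO held between 9 and 111 reads at every base, with a level of 31.2 (22.9 to 41.7). OXJ held no read at 117 of the bases and at most 5 at the other 75, with a level of 1.12 (0.120 to 4.22). The stretch was bounded by the first and the last run of *Peg10* bases without OXJ reads, as defined below. Its low OXJ level thus follows from how it was chosen, and the intervals do not allow for that choice. The 200 bases before it were at 19.1 in JXO and 22.3 in OXJ, and the 200 bases after it at 44.1 in JXO and 22.1 in OXJ. A run of at least 30 exon bases without a read in OXJ, over which JXO had a mean of at least 20 reads, was found in 3 of 340 protein-coding genes with a level of at least 10 in both libraries (0.882%). Besides *Peg10* these were *Bst2* and *Slc38a4*, with 1 run each of 35 and 43 bases. In the opposite direction, no read in JXO, there were 0 of 340 such genes (0%).

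The stretch is repetitive. 88.5% of its bases belong to 12-base words that recur within it, and the hexamer CATCAG occurs 13 times in it and 14 times in all other coding bases of *Peg10*, of which the stretch is 6.37%. In the coding region outside it 14.9% of the bases belong to words of this length that recur anywhere in the coding region, so these shares are counted differently. Such words are not confined to the stretch and were found as far as 554 bases before it. The 200 bases before the stretch were at 19.1 in JXO and 22.3 in OXJ. The stretch has 53.6% G and C, and the whole coding region 52.2%. The part of the repeats in the missing OXJ reads was not tested. The paternal allele is that of OG2 in JXO and that of JF1 in OXJ, and reads were aligned to the C57BL/6J reference. The tracks carry no alleles, so whether JF1 reads were left unaligned here was not tested either, and the low OXJ level is a level of aligned reads. Without the stretch the log2 ratio of *Peg10* was -0.28, against -0.25 with it, an alternative chosen after seeing the data.

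**Figure D3:**
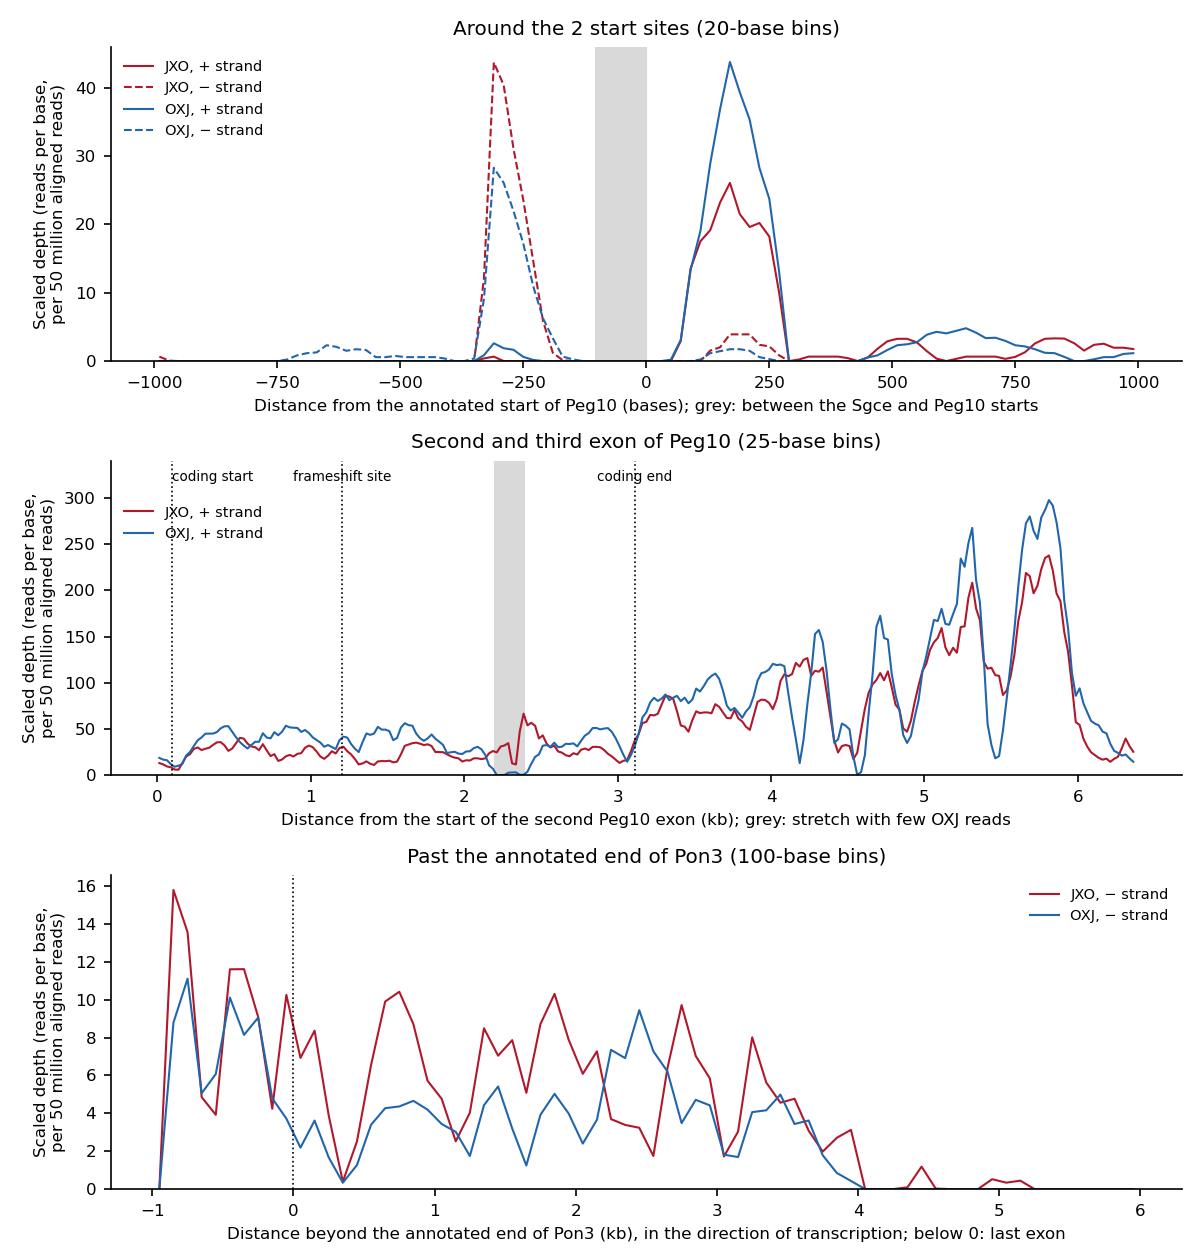
Scaled depth in JXO (red) and OXJ (blue) around the starts of *Sgce* and *Peg10* (top; solid (+) strand, dashed (−) strand), along exons 2 and 3 of *Peg10* (middle) and past the annotated end of *Pon3* (bottom), against distance in bases or kb. The 101 bases between the starts (grey, top) are empty, and (−) strand signal runs on for about 4 kb past *Pon3*. Over the grey stretch of *Peg10*, which was bounded by runs without OXJ reads, JXO has 31.2 and OXJ 1.12.

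The ratio of the crosses varied along *Sgce*. The counting intervals of single exons overlapped between exons 3 to 8 and exons 10 to 12. Each exon was taken alone and no interval was made for the exons joined, so this overlap does not show that the change lies within counting error. Of the 12 exons of its longest coding transcript 8 were higher in JXO and 4 in OXJ as deposited, and 7 were higher in JXO with the median gene set equal. Exons 3 to 8 had log2 ratios of JXO over OXJ between 0.52 and 0.81, against 0.46 for the median gene. Exon 8, for example, was at 56.7 (45.7 to 69.5) in JXO and 39.2 (30.6 to 49.4) in OXJ. Exons 10 to 12 had ratios of -0.09, 0.11 and -0.13. Exon 2, 108 bases long, held no read in JXO and 1.95 reads in OXJ, whereas exons 1 and 3 on either side of it held 53.0 and 86.0 reads in JXO and 42.7 and 64.9 in OXJ.

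The short exon 9, printed above, went the other way. Its level was 17.4 (4.32 to 46.7) in JXO and 44.8 (21.9 to 81.4) in OXJ. At 27 bases its length is a multiple of 3, and 6 of 12 annotated *Sgce* transcripts contain it. In JXO the exon had 39 reads at its first base and 1 at its last, whereas OXJ had 75 reads at the first base and 73 at the last. The 67 bases of exon 10 next to it continued this, with 23.6 in JXO and 44.3 in OXJ, while the other 122 bases of exon 10 were at 61.3 in JXO and 54.8 in OXJ. The last 67 bases of exon 8 showed no such decline, with 55.3 in JXO and 43.0 in OXJ. The intervals of exon 9 overlap, and the log2 ratio of -1.36 has a counting interval of -3.61 to 0.47. These intervals rest on the read bases inside the exon, which amount to 7.21 reads in JXO and 20.9 in OXJ. Single bases of the exon held up to 39 reads of JXO and 81 of OXJ. The intervals are thus wide because the exon is shorter than a read. They do not show a difference in the use of this exon, which was not tested otherwise.

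*Asb4* has annotated starts 7.02 kb apart, and RNA was found from the downstream one. The 250 bases after the upstream start, which include the first exon of the longest transcript (20 bases), held no read in either library, which allows a level of up to 1.92 in JXO and 1.71 in OXJ. Only 1.72 reads of JXO and 1.34 of OXJ lay between the starts, which apart from the 20 exon bases is intron of the longest transcript. In the 250 bases after the downstream RefSeq start there were 46.3 reads of JXO (a level of 12.1) and 8.67 of OXJ (2.01). The 250 bases before each start are shown next because reads were found at the downstream start only. They are RefSeq promoter entries of GRCm38.p6, found by exact match at chr6:5333136-5333385 and chr6:5340160-5340409 of mm9, (+) strand, with CG pairs and the letters CCAAT in capitals.
Asb4 upstream start: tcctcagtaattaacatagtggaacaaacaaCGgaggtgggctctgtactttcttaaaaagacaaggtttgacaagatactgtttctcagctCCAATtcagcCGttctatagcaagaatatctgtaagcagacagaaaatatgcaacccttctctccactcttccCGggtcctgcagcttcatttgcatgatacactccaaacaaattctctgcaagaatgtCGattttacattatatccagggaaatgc
Asb4 downstream start: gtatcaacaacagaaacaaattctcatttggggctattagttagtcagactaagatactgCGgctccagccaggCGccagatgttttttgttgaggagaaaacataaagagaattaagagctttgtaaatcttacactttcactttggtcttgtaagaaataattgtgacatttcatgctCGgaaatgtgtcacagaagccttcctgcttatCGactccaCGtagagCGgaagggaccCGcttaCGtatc

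The upstream start, whose use was not excluded, has 4 CG pairs and the downstream start 8, and all promoters of the table have a median of 6. The letters CCAAT, searched on both strands, occur before the upstream start and in 33.8% of all promoters. The letters TATAAA, found in 12.4% of promoters, and GGGCGG, found in 32.7%, occur before neither start of *Asb4*. Of the 6 genes 4 have entries in the table, with 6 starts. *Pon2* has 24 CG pairs before its start, more than 88.0% of promoters, and the starts of *Ppp1r9a* have 8 and 35. *Pon3* has 6, although its exon level was higher than that of *Ppp1r9a* in both libraries.

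Along *Asb4* the distance between the crosses was not even. Exon 2 was at 14.1 (8.79 to 21.5) in JXO and 2.37 (0.650 to 6.04) in OXJ, and the last exon, which holds most of the bases, at 12.99 (11.3 to 14.8) in JXO and 3.84 (3.01 to 4.84) in OXJ. In both, the intervals were apart. Exon 4 had 9.13 (6.34 to 12.7) in JXO and 6.45 (4.26 to 9.36) in OXJ, and exon 5 had 11.5 in JXO and 8.25 in OXJ, with overlapping intervals. All 5 exons that held reads were higher in JXO.

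*Pon2* showed the same direction in all 9 exons of its longest coding transcript, with log2 ratios between 0.77 and 1.39. Exon 5 was at 91.0 (73.0 to 112) in JXO and 34.8 (24.6 to 47.7) in OXJ, and its last exon at 33.4 (29.96 to 37.2) in JXO and 15.9 (13.7 to 18.4) in OXJ. A piece next to exon 5 that is exon only in other annotated transcripts, 2152 bases long, had 0.213 in JXO and 0.298 in OXJ. It lowers the level over all exons joined. Over the longest coding transcript alone *Pon2* was at 45.5 in JXO and 21.7 in OXJ, against 41.1 in JXO and 32.4 in OXJ for *Sgce*. The intervals of these genes overlapped in JXO and not in OXJ.

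**Figure D4:**
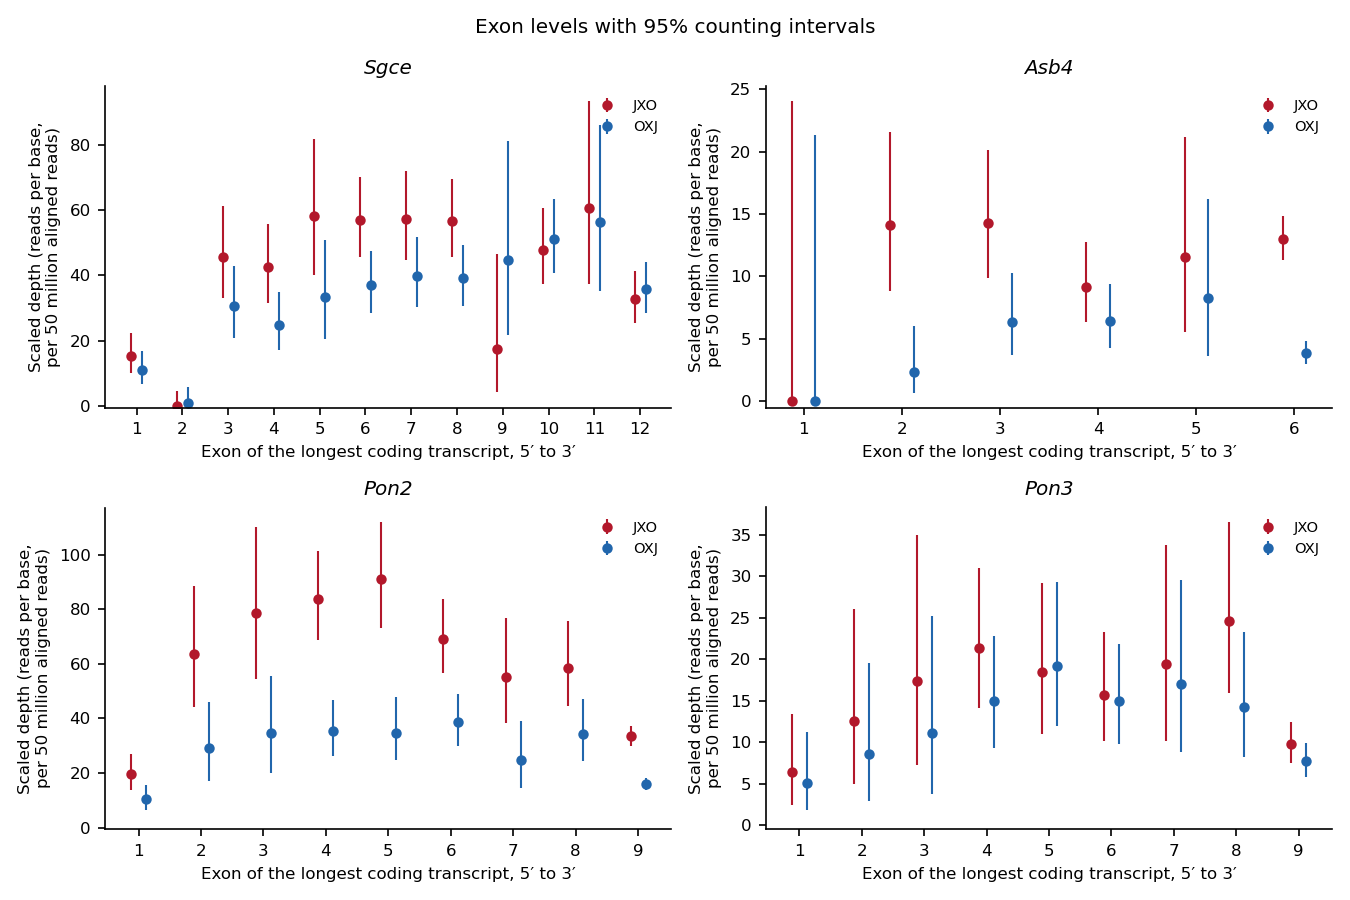
Level of each exon of the longest coding transcript in JXO (red, left) and OXJ (blue, right), 5′ to 3′, with 95% counting intervals, for *Sgce*, *Asb4*, *Pon2* and *Pon3*. JXO is above OXJ in all 9 exons of *Pon2* and in the 5 exons of *Asb4* with reads, while exon 9 of *Sgce* has 17.4 in JXO and 44.8 in OXJ.

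Of the 6 genes *Pon3* had the highest signal past its annotated end. On the (−) strand this signal continued for 3.98 kb in JXO and 3.97 kb in OXJ without a gap of more than 100 bases. Over the extension the level was 5.61 (4.80 to 6.52) in JXO and 3.73 (3.11 to 4.43) in OXJ. The last exon of *Pon3* was at 9.75 (7.53 to 12.4) in JXO and 7.68 (5.83 to 9.93) in OXJ. The (+) strand over the extension was at 0.266 in JXO and 0.175 in OXJ, and the 5 kb past it on the (−) strand at 0.078 in JXO and 0 in OXJ, where no read allows up to 0.085. Beyond the end of *Pon2* there was weaker signal, with the first 5 kb at 0.209 in JXO and 0.300 in OXJ, from 16 and 25.9 reads. Of the 9 exons of *Pon3* 8 were higher in JXO, and the counting intervals of the crosses overlapped in every exon. Some of these exons are shorter than a read, where the intervals are wide, so overlap there does not show that the crosses are alike.

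The exons of all 6 genes were set against each other in the crosses and against 757 genes with at least 10 exon reads in each library. As deposited, the median gene had a log2 ratio of JXO over OXJ of 0.46, so that ratios near this value are those of the typical gene. *Peg10* had -0.25 (-0.32 to -0.19), *Sgce* 0.35 (0.17 to 0.52), *Asb4* 1.49 (1.198 to 1.80), *Ppp1r9a* 0.31 (-0.23 to 0.86), *Pon2* 1.05 (0.88 to 1.22) and *Pon3* 0.28 (-0.02 to 0.58). The median of the 6 genes was 0.33. *Peg10* was rank 68 and *Asb4* rank 743 of 757, counted from the lowest ratio.

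5 of the 6 genes were higher in JXO, as were 83.8% of the 757 genes. *Asb4* and *Pon2* were at least 1.5 times higher in JXO, a size that 37.8% of genes reached. None of the 6 was at least 1.5 times lower in JXO, against 3.83% of genes. When the libraries were scaled so that the median gene was equal, *Asb4* stood at 1.03 (0.74 to 1.33) and *Pon2* at 0.59 (0.42 to 0.75), and 6.61% of genes were at least 1.5 times higher. *Peg10* stood at -0.72 (-0.79 to -0.65), and 11.9% of genes were at least 1.5 times lower. On this scale *Sgce* was at -0.11, *Ppp1r9a* at -0.15 and *Pon3* at -0.18, so these genes had opposite signs on the scales.

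Beside the 500 genes of the nearest mean level, *Peg10* was at percentile 3.80 and *Asb4* at 98.4, where the central 95% of these genes spanned -0.33 to 1.24 for *Peg10* and -0.59 to 1.25 for *Asb4*. *Asb4* lay outside that span and *Peg10* inside it. The 500 genes are most of the 757 genes, so they match the level of each gene only loosely. *Pon2* was at percentile 94.6, *Ppp1r9a* at 42.0, *Sgce* at 34.0 and *Pon3* at 33.4. The 2 genes that share a promoter, *Peg10* and *Sgce*, thus lay on different sides of 0 as deposited, but both below the median gene.

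**Figure D5:**
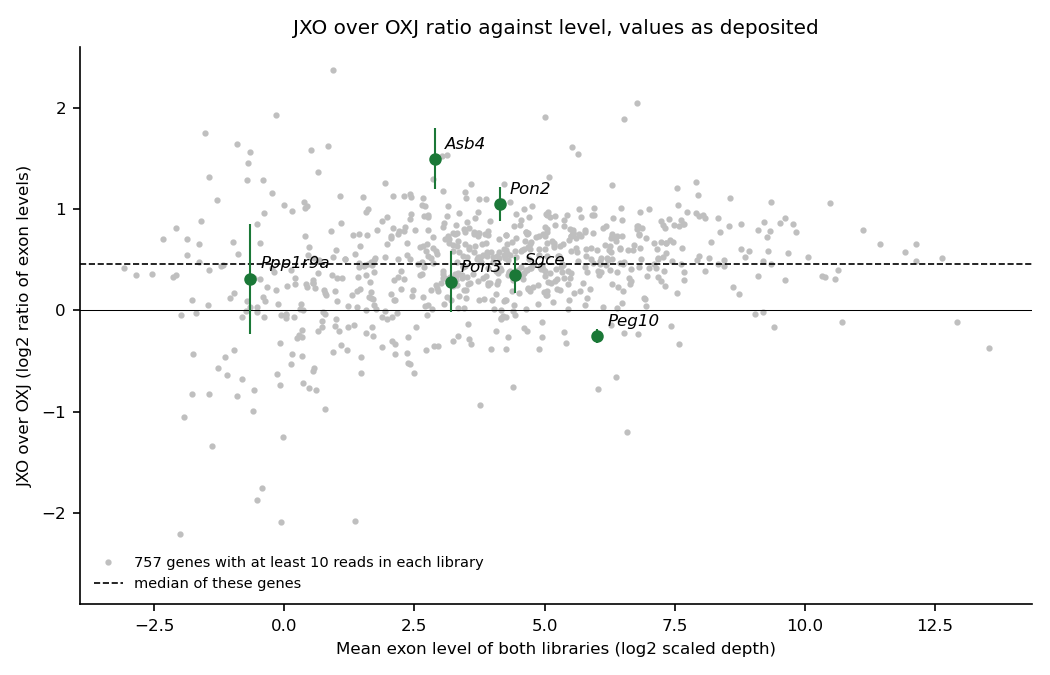
Log2 ratio of JXO over OXJ against mean exon level (log2 scaled depth) for 757 genes (grey) and the 6 genes described (green, lines are 95% counting intervals), values as deposited; the dashed line is the median of 0.46. *Asb4* at 1.49 and *Pon2* at 1.05 lie above the line, *Sgce*, *Pon3* and *Ppp1r9a* lie above 0 but below the line, and *Peg10* at -0.25 lies below 0.

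Other genes of the same region were listed by position. Of 11 genes 8 had at least 10 exon reads in each library and all 8 were higher in JXO, with a median log2 ratio of 0.80, as were 634 of all 757 genes, with a median of 0.46. The largest were *Gng11*, a G protein subunit, at 175 in JXO and 42.5 in OXJ, and *Tfpi2*, a protease inhibitor of the matrix, at 50.9 in JXO and 13.6 in OXJ. *Casd1*, the next gene to *Sgce*, was at 31.4 in JXO and 18.4 in OXJ (log2 ratio 0.77), and *Pdk4*, next to *Asb4*, at 9.14 in JXO and 6.22 in OXJ (0.56). *Bet1* had a ratio of 0.94, *Slc25a13* 0.82, *Col1a2* 0.59 and *Dync1i1* 0.23 (-0.77 to 1.22). *Pon1*, the other paraoxonase gene, which lies between *Ppp1r9a* and *Pon3*, held no exon read in either library, which allows a level of up to 0.318 in JXO and 0.282 in OXJ. *Gngt1* held none either, and nor did *Calcr*, which is not wholly inside a deposited stretch. With the median gene equal 7 of the 8 were higher in JXO and *Dync1i1* was at -0.24, against 378 of 757 genes higher in JXO.

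*Mest*, a paternally expressed gene farther along the chromosome, and *Copg2*, whose exons partly overlap *Mest* on the opposite strand and which is not wholly inside a deposited stretch, were measured in the same way. *Mest* was at 169 (164 to 174) in JXO and 106 (103 to 110) in OXJ, and *Copg2* at 27.6 in JXO and 17.4 in OXJ. Their log2 ratios were 0.67 and 0.66, above the median gene, so that *Mest* and *Peg10*, both known as paternally expressed, lay on opposite sides of the median gene.

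By the distance between the pairs of log2 levels in these 2 libraries, the protein-coding genes nearest to *Peg10* were *Ckb* at 70.0 in JXO and 68.3 in OXJ, *Nup98* at 58.6 in JXO and 53.8 in OXJ, and *H2afj* at 56.0 in JXO and 53.8 in OXJ. Nearest to *Sgce* were *Peg3* at 23.2 in JXO and 18.9 in OXJ, *Th1l* at 25.5 in JXO and 19.3 in OXJ, and *Smarcd1* at 25.9 in JXO and 17.9 in OXJ. The distances were 0.26 to 0.38 for *Peg10* and 0.05 to 0.13 for *Sgce* among 626 genes, and over 2 libraries such likeness is a description only.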

How the data were processed

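Strand-specific paired-end RNA sequencing signal of 1 JXO and 1 OXJ MEF line was used, in 4 tracks, 1 for either direction of either library. RNA was depleted of ribosomal RNA, and the second cDNA strand was marked with dUTP. The submitters' processing notes name CASAVA 1.9 and TopHat 1.2.0 with mm9; reads could map to up to 10 loci, so repeated sequence is counted at several places. The authors took the read depth at each base with Samtools 0.1.18, scaled it to 50000000 aligned reads, added 1 and deposited log2 values. These log2 values were converted to depth and to whole reads of 100 bases (largest relative deviation 3.61e-14). RNA of the (−) strand was in the tracks named forward. Signal less than 50 kb apart was taken as 1 stretch (618 in all), and a base outside them is not a measurement of silence. Exons of all transcripts of a gene in GENCODE M1 (mm9 coordinates) were joined.

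Read pairs, counted as 200 bases, gave exact Poisson, Clopper-Pearson and conditional binomial intervals, which cover counting error only. The Poisson and conditional binomial intervals were run on simulated counts of whole genes, drawn from the Poisson model that they assume. Windows shorter than a read were not simulated, and there the intervals are approximate. With 1 library per cross, no test of the cross was made. All 6 genes are named, as are the region list with any covered base, *Mest* and *Copg2*, and the 3 genes nearest to *Peg10* and to *Sgce*; *Bst2* and *Slc38a4* were named after their values were seen. The genes and lists were chosen with earlier results of these data known. Promoter sequences are from RefSeq; they hold 4 of the 6 genes, not *Peg10* and *Sgce*. Python 3.11.15, numpy 2.4.6, scipy 1.17.1 and matplotlib 3.10.9 were used.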

Additional observations from a re-analysis of the deposited data

How the results depend on the processing

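As deposited, 5 of the 6 genes were higher in JXO; this count was 2 when the libraries were scaled so that the median gene was equal, since *Sgce*, *Ppp1r9a* and *Pon3* have ratios below that of the median gene, and 4 with the mean of the log2 values, where *Pon3* was at -0.03. Scaling to equal totals lowered every log2 ratio by 0.18 and changed no sign among the 6 genes. Over 6 alternatives the ratio of *Asb4* lay between 1.03 and 1.51 and that of *Pon2* between 0.52 and 1.07, and over 7 alternatives that of *Peg10* between -0.72 and -0.16. Levels depend on the exons counted: *Pon2* was at 45.5 in JXO and 21.7 in OXJ over its longest coding transcript, against 1.304 in JXO and 1.16 in OXJ as a median over all exon bases. Of 97 values of single genes 58 stayed inside their counting interval and 39 left it. Signs of ratios changed in 1 alternative each for *Sgce* and *Ppp1r9a* and in 2 for *Pon3*, all genes at less than 1.5 times either way. Depth limits the statements on *Ppp1r9a*, and the short length of exon 9 of *Sgce* limits those on that exon. No paired analysis was possible because each cross has 1 library.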
